A study of Homo sapiens with 12 samples.

Results

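Nuclear genes for the respiratory chain and the ATP synthase were followed in melanoma cells in which the transcription factor MITF was depleted with an inducible short hairpin RNA. The genes were chosen by symbol: those starting with NDUFA, NDUFB, NDUFC, NDUFS or NDUFV and a digit, with UQCR, with ATP5 or with COX4 to COX8, together with SDHA to SDHD and CYC1, leaving out any symbol with a hyphen. This gave 82 of the 12616 genes in the table, of which 36 belong to complex I, 4 to complex II, 11 to complex III, 12 to complex IV and 19 to complex V. By their names, 75 encode a subunit, and the other 7 (UQCRHL, UQCRBP1, COX7A2L, ATP5L2, ATP5S, ATP5SL and ATP5EP2) are copies, pseudogenes or accessory factors that the letters also catch. NDUFA4, first named as a subunit of complex I, was counted with complex IV, where it is now placed.

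The established human melanoma lines MeWo and SkMel28, each carrying a doxycycline (Dox)-inducible hairpin against MITF, were grown for 8 days with 0 or 1 µg/ml Dox. There were 3 libraries in each of the 4 groups (MeWo control, MeWo Dox, SkMel28 control and SkMel28 Dox), 12 in all. RNA was read from the 3′ ends of transcripts (QuantSeq), so values were not divided by transcript length. The labels place MeWo in EMEM and SkMel28 in RPMI medium, both with serum, whereas the study's methods name RPMI for nearly all of its human lines. Whether the lines also differed in medium is therefore not settled here, and if they did, line and medium cannot be told apart. No line given Dox without this hairpin was analysed here, so the hairpin and the drug cannot be told apart either. Doxycycline belongs to the tetracyclines, which can inhibit translation by mitochondrial ribosomes. In bulk RNA of this kind, fewer cells of a type and less RNA per cell cannot be told apart.

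The respiratory chain passes electrons from NADH (complex I) and succinate (complex II) through complex III to complex IV, which reduces oxygen. Complexes I, III and IV pump protons out of the mitochondrial matrix, and complex V, the ATP synthase, uses their return to make ATP. Most subunits are encoded in the nucleus and a few core subunits in mitochondrial DNA. None of the 13 protein genes of mitochondrial DNA was listed in the table, so only the nuclear share of each complex was measured. In pigment cells MITF is known to drive PPARGC1A, a coactivator of nuclear genes for respiration.

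All values below are normalised read counts, that is, reads divided by the authors' scaled library size, given as the mean ± SD (n = 3) of a group. Changes are log2(value + 1) differences ± standard error, with Benjamini-Hochberg adjusted p over all 12616 genes, and genes with an adjusted p below 0.05 are those called. The libraries held 2568187 to 3714608 reads, of which 5.69 to 8.55% came from added spike-in RNAs, and 1 read was worth 0.278 to 0.389. MITF itself fell in both lines. Its values were 657, 663 and 708 in MeWo control and 451, 354 and 371 in MeWo Dox (log2 -0.79 ± 0.11, adjusted p = 6.49e-05). In SkMel28 they were 861, 739 and 792 in control and 575, 578 and 552 with Dox (log2 -0.49 ± 0.11, adjusted p = 0.00705), and the difference between the changes of the lines was not called (-0.31, adjusted p = 0.225). All 10 melanocytic markers were listed, with a summed value of 13105 to 13305 in MeWo without Dox and 6751 to 8461 with it, and of 11594 to 12969 and 7821 to 8178 in SkMel28, and 4 rose and 6 fell in MeWo while 2 rose and 3 fell in SkMel28. Of 6 fibroblast markers 2 were listed, with a sum of 41.5 to 47.8 in MeWo control and 9.85 to 19.2 in MeWo Dox, and of 10.9 to 13.3 and 6.04 to 8.91 in the SkMel28 groups. The 1 keratinocyte marker of 5 that was listed ranged from 131 to 153 and 145 to 159.5 in MeWo and from 86.2 to 104 and 111 to 117 in SkMel28, and none of the leukocyte or endothelial markers was listed. The part of other cell types in the results below was not tested.

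One library stood apart. MeWo Dox replicate 1 differed from its group mates with a chi-square of 17.4 and 15.2 per gene, against 1.54 to 5.38 for every other pair of replicates. Among the 82 genes the median SD on the log2 scale was 0.253 in MeWo Dox and 0.111 to 0.121 in the other groups. The counts of called genes in MeWo are therefore also given without this library, over all members and for each complex.

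Among the 82 genes, 15 fell and 0 rose with Dox in MeWo, and 9 fell and 0 rose in SkMel28. Over all genes, 8.12% fell and 8.58% rose in MeWo, and 5.04% fell and 5.88% rose in SkMel28, while the genes of the 5 complexes that fell were 18.3% and 11% of their number. The count of 0 for higher genes came from limma, and edgeR and DESeq2 also gave 0, with 1 member higher at an unadjusted p below 0.05 in each line. The median change of the 82 genes was -0.25 in MeWo (all genes 0.00) and -0.10 in SkMel28 (all genes 0.00), and 68 of 82 in MeWo and 61 of 82 in SkMel28 had a fitted change below 0. In MeWo all 3 Dox libraries lay below all 3 controls for 33 of the 82 genes and above them for 0, against 14.7% below and 14.1% above over all genes. For SkMel28 the same counts were 30 below and 3 above, against 16.1% and 16.1%. Without MeWo Dox replicate 1, 1891 of all 12616 genes fell and 2022 rose in MeWo, and 1003 fell and 1039 rose in SkMel28. In that fit 26 members fell in MeWo and 4 rose (NDUFS6 by 0.75, ATP5I by 0.49, NDUFA11 by 0.44 and ATP5O by 0.26 on the log2 scale, named after their values were seen). In SkMel28 17 members fell and 1 rose (NDUFA4, by 0.31). The MeWo count was 6, 4 and 5 without MeWo control replicates 1, 2 and 3 and 6 without MeWo Dox replicate 3, and the SkMel28 count was 3 when SkMel28 Dox replicate 1 was left out and 4 when control replicate 1, control replicate 3 or Dox replicate 2 of that line was. With each library left out in turn, 3 of the 15 MeWo calls (UQCRFS1, NDUFB1 and UQCRB) and 3 of the 9 SkMel28 calls (UQCRFS1, NDUFB1 and NDUFS7) held throughout. Scaling to the spike-in RNAs moved the median of all genes to 0.22 in MeWo and -0.08 in SkMel28, and the members' median then lay 0.22 below that of all genes in MeWo and 0.11 below it in SkMel28, with 3 members called higher (NDUFS6, ATP5I and NDUFA11) and 1 lower (UQCRFS1) in MeWo and 6 lower in SkMel28.

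**Figure D1:**
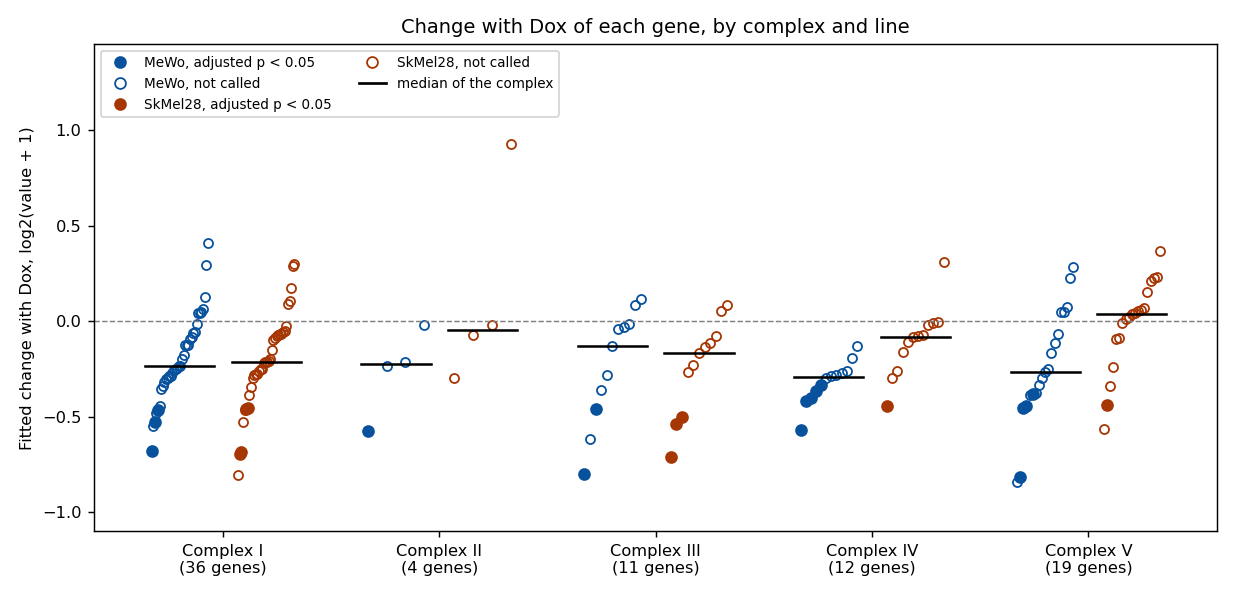
Change with Dox of each of the 82 genes on the log2(value + 1) scale, by complex, in MeWo and SkMel28. Filled points have an adjusted p below 0.05 and bars mark medians, and the called points lie below 0 in both lines, 15 in MeWo and 9 in SkMel28.

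Members that fell in both lines numbered 3, namely UQCRFS1, NDUFB1 and COX8A, which is 3.66% of the 82 genes. Over all genes, 226 (1.79%) fell in both lines. A further 12 members were called in MeWo and 6 in SkMel28, with 21 called in either line. Membership of these lists does not by itself show that the lines differ, and the tests of that difference are given further on. All Dox libraries lay below all controls in both lines for 10 members (12.2%), COX4I1, COX5A, COX7A2, COX8A, NDUFA2, NDUFB1, NDUFS7, UQCR11, UQCRC2 and UQCRFS1, against 579 of all genes (4.59%).

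UQCRFS1, the Rieske iron-sulfur protein of complex III, which takes electrons from ubiquinol, had the smallest adjusted p of the MeWo members. The gene lies at chr19:29205320-29213151 on the minus strand (GRCh38). Its values were 124, 127 and 124 in MeWo control and 76.3, 69.0 and 69.1 in MeWo Dox, and 187, 167 and 185 in SkMel28 control and 121, 101 and 108 in SkMel28 Dox. The groups did not overlap in either line, and MeWo Dox replicate 1, at 76.3, lay near its mates. The mean fell by 42.8% in MeWo (125 ± 1.82 to 71.5 ± 4.19, log2 -0.80 ± 0.11, adjusted p = 8.47e-05) and by 39.0% in SkMel28 (179.7 ± 10.9 to 109.7 ± 10.3, log2 -0.71 ± 0.11, adjusted p = 0.000429). It was called in both lines under all 26 other settings, with a log2 change of -0.85 to -0.53 in MeWo and -0.81 to -0.65 in SkMel28.

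NDUFB1, an accessory subunit in the membrane arm of complex I (chr14:92116122-92121917, minus strand), was 363, 356 and 310.3 in MeWo control and 243, 275 and 227 in MeWo Dox. In SkMel28 it was 499, 513 and 572 without Dox and 321, 316 and 338 with it. No Dox value reached a control value in either line. The change was -0.46 ± 0.11 in MeWo (adjusted p = 0.00696) and -0.70 ± 0.11 in SkMel28 (adjusted p = 0.00038). COX8A, a small membrane subunit of complex IV (chr11:63974620-63976543, plus strand), went from 409, 418 and 399 to 346, 340.3 and 251 in MeWo and from 246, 222 and 253 to 159.7, 179 and 191 in SkMel28. Its groups also stood apart in both lines, with MeWo Dox replicate 3 the lowest of its group. The falls were -0.40 ± 0.13 (adjusted p = 0.0378) and -0.44 ± 0.13 (adjusted p = 0.0312). The SkMel28 call of NDUFB1 held under all 26 settings, and the MeWo calls of NDUFB1 and COX8A under 22 and 15.

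**Figure D2:**
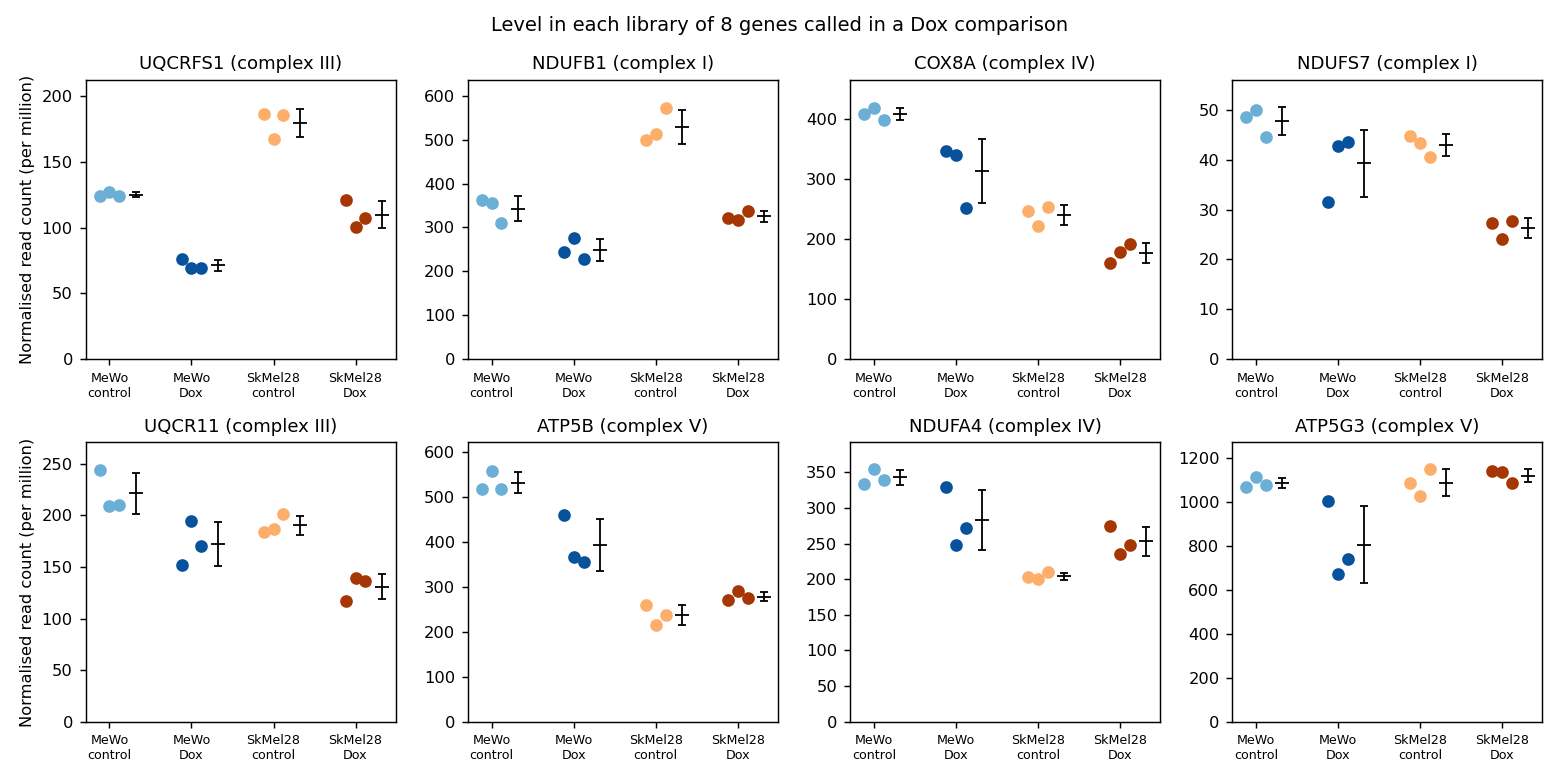
Normalised read counts of 8 genes in the 4 groups, with a point for each of the 3 libraries and a bar for the mean ± SD. UQCRFS1, NDUFB1 and COX8A are lower with Dox in both lines without overlap, and ATP5B and NDUFA4 are lower in MeWo and higher in SkMel28. For ATP5B only the MeWo change was called, and for NDUFA4 the change was called in neither line.

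The stretches just before the transcription starts of 4 genes are shown because these genes fell and because their promoters differ in E-box letters, which the MITF family binds. Each is the 250 bases up to the start on the gene's own strand, from RefSeq (GRCh38.p14), 5′ to 3′, with the letters CACGTG (E-box), GCATGCGC (nuclear respiratory factor 1) and AAGGTCA (oestrogen-related receptors) or their reverse complements in capitals. The coordinates are chr19:29213152-29213401 (minus strand) for UQCRFS1, chr19:1383657-1383906 (plus strand) for NDUFS7, chr19:1605463-1605712 (minus strand) for UQCR11 and chr1:111449214-111449463 (plus strand) for ATP5F1.
UQCRFS1: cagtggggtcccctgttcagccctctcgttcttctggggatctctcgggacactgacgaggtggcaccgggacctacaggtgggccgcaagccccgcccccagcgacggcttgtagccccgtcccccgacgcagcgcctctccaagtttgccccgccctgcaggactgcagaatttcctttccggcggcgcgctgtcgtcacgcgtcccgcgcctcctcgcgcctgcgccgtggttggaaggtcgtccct
NDUFS7: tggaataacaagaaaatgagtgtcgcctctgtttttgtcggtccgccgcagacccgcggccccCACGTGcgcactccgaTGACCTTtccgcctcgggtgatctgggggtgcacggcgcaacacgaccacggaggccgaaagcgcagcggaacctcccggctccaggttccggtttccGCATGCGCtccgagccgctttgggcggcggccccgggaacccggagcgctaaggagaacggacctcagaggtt
UQCR11: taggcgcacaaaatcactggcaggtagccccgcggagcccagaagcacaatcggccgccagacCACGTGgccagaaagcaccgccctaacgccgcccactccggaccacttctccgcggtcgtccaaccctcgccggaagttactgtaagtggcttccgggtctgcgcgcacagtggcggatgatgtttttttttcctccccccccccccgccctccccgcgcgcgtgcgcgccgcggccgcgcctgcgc
ATP5F1: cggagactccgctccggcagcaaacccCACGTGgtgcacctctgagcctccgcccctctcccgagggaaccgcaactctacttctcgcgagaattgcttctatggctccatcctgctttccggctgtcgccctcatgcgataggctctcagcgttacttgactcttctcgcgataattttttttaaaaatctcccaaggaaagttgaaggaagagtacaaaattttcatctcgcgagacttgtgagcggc
UQCRFS1 held none of the 3 motifs in this window. Neither did NDUFB1, which also fell in both lines and whose stretch (chr14:92121707-92121956, minus strand) is not shown. NDUFS7 held all 3, with CACGTG at 187 to 182 bases before the start, the receptor letters at 171 to 165 and the NRF1 letters at 73 to 66. UQCR11 held CACGTG at 187 to 182 bases and ATP5F1 at 223 to 218 bases before the start. For NDUFS7 and ATP5F1 the whole stretch, and for NDUFB1 most of it, lies inside the wider GENCODE locus of the gene. Other annotated starts were not searched, so these positions hold for the RefSeq start only.

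Promoters of 300 bases (250 before to 50 after the start) were found for 65 of the 82 genes and for 10123 other listed genes, and 6 motifs were searched on both strands, none of which contains another. CACGTG was in 10.8% of the members' promoters, in 10.5% of those of the other listed genes and in 7.43% of all 27305 promoters. For CATGTG, the other E-box form, the shares were 7.69%, 6.76% and 11.2%. GCATGCGC was in 20% of the members' promoters against 5.61% of other listed genes and 3.27% of all promoters, and AAGGTCA was in 12.3% against 2.25% and 3.97%. ATGGCG (YY1) was in 33.8%, 18.4% and 11%, and CGGAAG (ETS factors) in 38.5%, 33.8% and 19.9%. Of 17 members with a promoter that fell in either line, 4 held CACGTG (NDUFS7, UQCR11, ATP5F1 and ATP5G1). The other motifs were in 1 (CATGTG), 4 (GCATGCGC), 3 (AAGGTCA), 4 (ATGGCG) and 6 (CGGAAG) of the 17. These are matches of letters, and binding was not measured here.

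Complex I takes electrons from NADH. Of its 36 genes, 3 fell in MeWo (NDUFA8, NDUFB5 and NDUFB1; median -0.23) and 4 fell in SkMel28 (NDUFS7, NDUFB1, NDUFB8 and NDUFB10; median -0.21). Dox libraries lay below all controls for 9 of the 36 in MeWo and 16 in SkMel28, and above them for 0 in either. The called shares were 8.33% in MeWo and 11.1% in SkMel28, against 8.12% and 5.04% over all genes, and all Dox libraries lay below control for 14.7% and 16.1% of all genes, so the MeWo call count was near that of all genes. Without MeWo Dox replicate 1, 6 of the 36 were called lower and 2 higher in MeWo, and the median was -0.15. That fit called 1891 lower and 2022 higher of all 12616 genes in MeWo. NDUFS7, a core subunit with an iron-sulfur cluster near the ubiquinone site, was 44.8, 43.5 and 40.6 in SkMel28 control and 27.3, 24.1 and 27.8 in SkMel28 Dox. The SkMel28 groups were well apart, and the fall was -0.68 ± 0.15 (adjusted p = 0.00645), called under all 26 other settings. In MeWo it went from 48.7, 50.1 and 44.7 to 31.6, 42.8 and 43.7, below control in every library, with a change of -0.29 ± 0.15 that was not called (adjusted p = 0.214). Of the 7 core subunits, 1 was called in SkMel28 and 0 in MeWo, and of the 29 accessory subunits 3 were called in each line.

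NDUFA8, an accessory subunit on the side of the membrane facing the intermembrane space, was 222, 218 and 182 in MeWo control and 173, 130.4 and 93.8 in MeWo Dox. The Dox values were spread widely but all lay below control (log2 -0.68 ± 0.18, adjusted p = 0.0171). NDUFB5, another accessory subunit of the membrane arm, went from 88.98, 90.5 and 107 to 76.0, 50.8 and 73.5 (log2 -0.53 ± 0.16, adjusted p = 0.0287), again without overlap. The MeWo calls held under 20 of 26 other settings for NDUFA8 and 19 for NDUFB5. The change of NDUFA8 and of NDUFB5 in SkMel28 was -0.26 (adjusted p = 0.43) and 0.09 (adjusted p = 0.793).

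Complex II, succinate dehydrogenase, is also an enzyme of the citrate cycle and is wholly encoded in the nucleus. SDHB, its iron-sulfur subunit, was 74.0, 76.2 and 84.9 in MeWo control and 64.5, 37.5 and 58.9 in MeWo Dox (log2 -0.57 ± 0.18, adjusted p = 0.0331). The groups did not overlap, and the lowest value was that of replicate 2. The call held under 18 of 26 other settings, and SDHB was 1 of 4 genes called in MeWo both with and without MeWo Dox replicate 1, where the median went from -0.22 to -0.30. None of the 4 genes was called in SkMel28, by limma at either the adjusted or the unadjusted threshold. Over all genes, 8.12% were called lower in MeWo and 5.04% in SkMel28, and without MeWo Dox replicate 1 1891 of 12616 were in MeWo. SDHA, the flavoprotein subunit, was 128 ± 19.2 and 126 ± 23.0 in MeWo control and Dox and 83.1 ± 5.78 and 67.8 ± 9.33 in SkMel28 control and Dox, with changes of -0.02 and -0.30 that were not called.

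Complex III passes electrons from ubiquinol to cytochrome c. Besides UQCRFS1, UQCRB fell in MeWo, and UQCR11 and CYC1 were called in SkMel28. That made 2 of 11 genes in MeWo, with a median of -0.13, and without MeWo Dox replicate 1 it was 3 of 11, with a median of -0.03. With all libraries, 18.2% of the complex fell in MeWo and 27.3% in SkMel28, against 8.12% and 5.04% of all genes. Without that library, 1891 of all 12616 genes fell in MeWo. UQCRB, which helps to form the ubiquinone site, was 1097, 1149 and 1141 in MeWo control and 903, 679.6 and 898 in MeWo Dox. All Dox values lay below control (log2 -0.46 ± 0.11, adjusted p = 0.0103), whereas the SkMel28 means were 629.6 ± 41.8 and 652 ± 18.4 with overlapping values (log2 0.05, adjusted p = 0.844). UQCR11, a small subunit, was 184, 186 and 201 in SkMel28 control and 117, 139.7 and 136 in SkMel28 Dox (log2 -0.54 ± 0.12, adjusted p = 0.00691). In MeWo it went from 244, 209 and 210.2 to 152, 194 and 171, with no overlap and a change of -0.36 ± 0.12 at an adjusted p of 0.0502. UQCRH, the hinge protein and the member of complex III with the highest mean (890.3), changed by -0.04 in MeWo and -0.14 in SkMel28, neither of which was called.

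Complex IV, cytochrome c oxidase, passes electrons from cytochrome c to oxygen. For all 12 of its genes each MeWo Dox library lay below each MeWo control, 5 of the 12 were called (COX5B, COX7A2L, COX7B, COX7C and COX8A), and the median change was -0.29. At an unadjusted p below 0.05 the count was 10. In SkMel28 COX8A was the only one called, the median was -0.08, and Dox libraries lay below control for 4 genes and above it for 1, NDUFA4. Over all genes, 8.12% were called lower in MeWo and 5.04% in SkMel28. All Dox libraries lay below control for 14.7% of all genes in MeWo and 16.1% in SkMel28, and above it for 16.1% in SkMel28. With the values scaled to the spike-in RNAs the MeWo sum over complex IV changed by -0.03 on the log2 scale, while the median of all genes was 0.22. COX7A2L, which is involved in joining complexes III and IV rather than a subunit, was 186, 214 and 211 in MeWo control and 179, 114 and 125 in MeWo Dox. Replicate 1 lay next to the lowest control and the other Dox libraries far below it (log2 -0.57 ± 0.15, adjusted p = 0.0142). COX7B, a small membrane subunit, went from 216, 216 and 213 to 193, 147 and 148 (log2 -0.42 ± 0.12, adjusted p = 0.0294), and replicate 1 was again the highest of the Dox libraries. COX5B, a nuclear subunit on the matrix side that binds zinc, went from 410.0, 397 and 382 to 313, 345 and 270.3 (log2 -0.36 ± 0.12, adjusted p = 0.042). The MeWo call held under 19 of 26 other settings for COX7A2L, 15 for COX7B and 12 for COX5B, and the call of COX5B was lost with edgeR and with DESeq2. In SkMel28 the changes of COX7A2L, COX7B and COX5B were -0.01, -0.02 and -0.08, with overlapping values. Without MeWo Dox replicate 1, 8 of the 12 genes were called lower in MeWo, against 1891 of all 12616 genes.

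**Figure D3:**
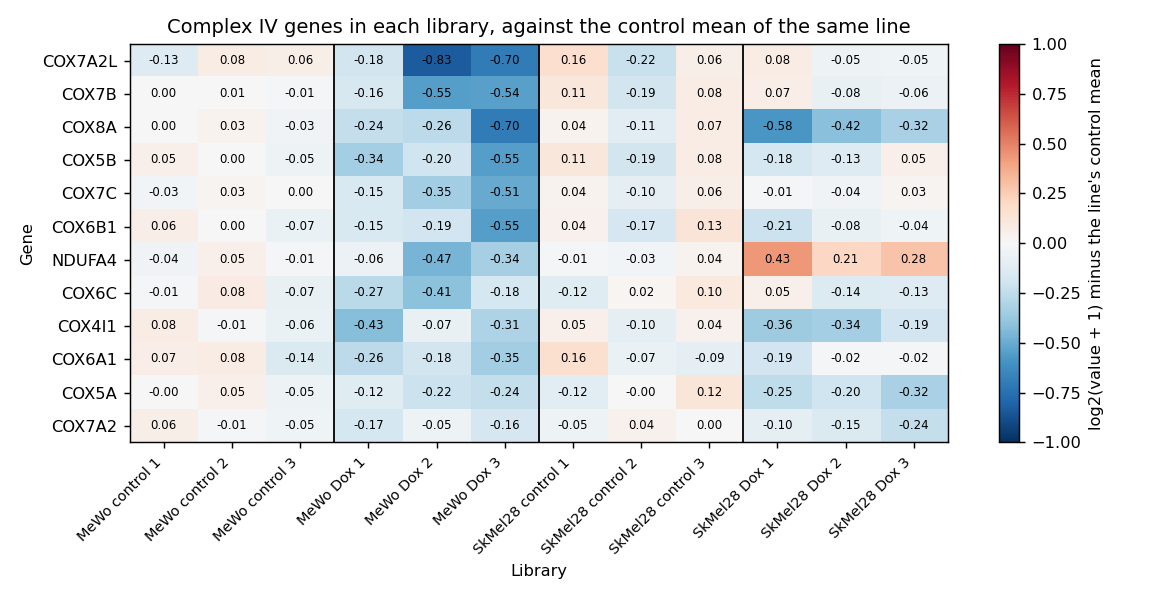
Heat map of the 12 genes of complex IV in the 12 libraries, coloured by log2(value + 1) minus the mean of the same line's 3 controls. All 12 genes are below 0 in the 3 MeWo Dox libraries, and in SkMel28 Dox the colours are mixed, with NDUFA4 above 0.

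Complex V makes ATP. Of its 19 genes 4 fell in MeWo (ATP5A1, ATP5B, ATP5F1 and ATP5G3; median -0.27) and 1 fell in SkMel28 (ATP5G1; median 0.03). The called shares were 21.1% in MeWo and 5.26% in SkMel28, against 8.12% and 5.04% over all genes. Without MeWo Dox replicate 1, 8 of the 19 were called lower and 2 higher in MeWo (ATP5I and ATP5O), and the median was -0.33. Among the 8 were ATP5E and its pseudogene ATP5EP2. Of all 12616 genes, that fit called 1891 lower and 2022 higher in MeWo. In the F1 part, the catalytic head with its central stalk, the median over 5 genes was -0.38 in MeWo (-0.44 to 0.05) and 0.15 in SkMel28 (-0.57 to 0.23). ATP5F1, the older symbol used in the table for subunit b of the peripheral stalk (now ATP5PB), was 139, 148 and 165 in MeWo control and 136, 70.5 and 64.0 in MeWo Dox. Replicate 1 lay just under the lowest control and the other Dox libraries far below it, with a change of -0.81 ± 0.21 (adjusted p = 0.0135) that became -1.15 without replicate 1. ATP5F1 overlaps WDR77 and has 8 annotated pseudogenes, and how reads of such loci were assigned was not given in the sources used here. ATP5G3, a gene for subunit c of the membrane ring, went from 1068, 1112 and 1077 to 1003, 671 and 738 in MeWo (log2 -0.45 ± 0.13, adjusted p = 0.0194), with replicate 1 again nearest to control. The MeWo calls of ATP5F1 and ATP5G3 held under 20 and 17 of 26 other settings.

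Subunit c is encoded by ATP5G1, ATP5G2 and ATP5G3, whose mature proteins are identical. The sum of the 3 genes was 2579 ± 36.5 in MeWo control and 2089 ± 320 in MeWo Dox, and 1837 ± 107 in SkMel28 control and 1817 ± 21.3 in SkMel28 Dox. ATP5G2 gave 49.1% of the sum in MeWo control and 26.4% in SkMel28 control, and ATP5G3 gave 42.1% and 59.2%. ATP5G1 was 273, 246 and 280.5 in SkMel28 control and 200.1, 194 and 193 in SkMel28 Dox, without overlap (log2 -0.44 ± 0.13, adjusted p = 0.0327), and its share of the sum went from 14.5% to 10.8%. In MeWo ATP5G1 went from 239, 211 and 231 to 172, 253 and 209.7, overlapping values (log2 -0.12, adjusted p = 0.577). Among the other sets of near-identical partners, UQCRHL held 0.73 to 1.04% of the reads of UQCRH and UQCRHL in the group means. The partners COX4I2, COX6A2, COX6B2, COX7A1, COX7B2, COX8C and NDUFA4L2 were not analysed here.

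Summed over all 82 genes, the values were 21071 ± 569 in MeWo control and 18227 ± 593 in MeWo Dox, 13.5% lower, and 17929 ± 555 and 16334 ± 174 in SkMel28, 8.9% lower. The Dox and control libraries did not overlap in either line. By complex, the MeWo sums were 9.0% lower for complex I, with overlapping libraries, and 13.2%, 13.5%, 18.2% and 13.5% lower for complexes II to V, without overlap. In SkMel28 the sum was 15.6% lower for complex I and 11% for complex III without overlap, and 5.9%, 6.4% and 1.6% lower for complexes II, IV and V with overlap. The 82 genes held 2.16 to 2.20% of all gene reads in MeWo without Dox and 1.77 to 1.89% with it, and 1.98 to 2.03% and 1.87 to 1.92% in SkMel28. Scaled to the spike-in RNAs, the sum of the 82 genes changed by 0.05 in MeWo and -0.24 in SkMel28 on the log2 scale. The MeWo sums so scaled were 19754 ± 3711 in control and 20438 ± 970 with Dox, with overlapping libraries. The lower MeWo sum thus holds relative to other genes, and this spread is too wide to tell its direction per spike-in RNA. In SkMel28 the libraries overlapped as well.

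**Figure D4:**
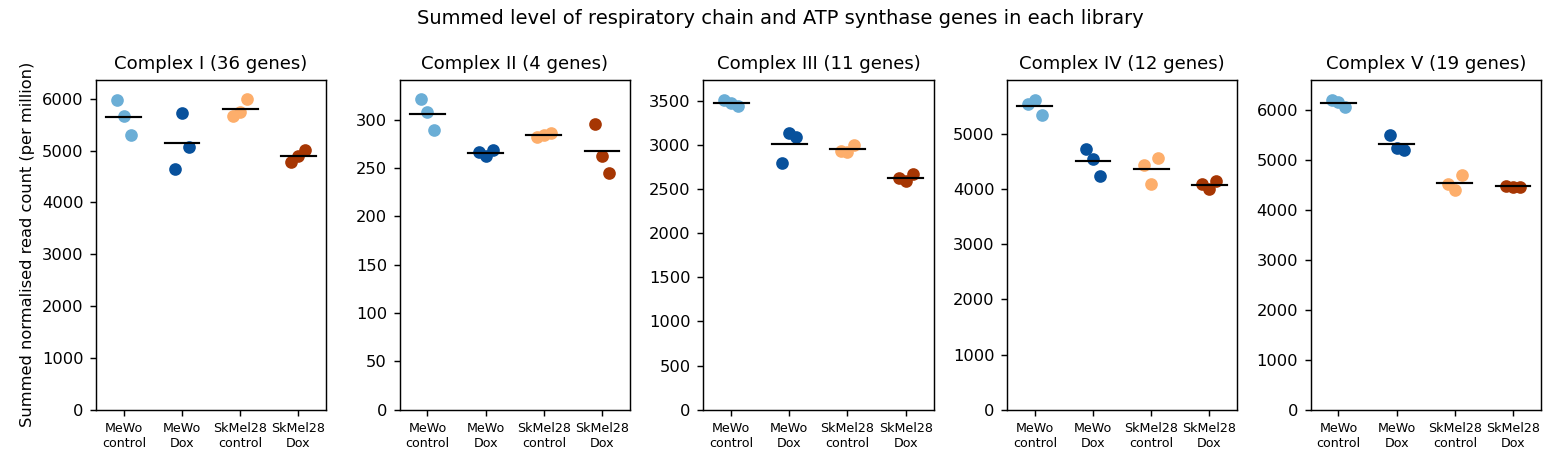
Sum of the normalised read counts of the genes of each complex in each library, with a bar for the group mean. In MeWo the Dox points lie below the control points for complexes II to V, and in SkMel28 for complexes I and III.

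The difference between the lines in their change with Dox was tested directly. It was called for 2 of the 82 genes, against 7.09% of all genes, and both were lower in MeWo relative to SkMel28. ATP5B, the catalytic beta subunit of the F1 head (chr12:56638175-56645984, minus strand), was 517, 558 and 518 in MeWo control and 459, 366 and 355 in MeWo Dox (log2 -0.44 ± 0.12, adjusted p = 0.0142). In SkMel28 it was 259.8, 216 and 238 without Dox and 269.8, 290.1 and 274 with it, all higher but not called (log2 0.23 ± 0.12, adjusted p = 0.244). The difference of the changes was -0.67 ± 0.16 (adjusted p = 0.02). NDUFA4 (chr7:10931943-10940153, minus strand) went from 334, 355 and 339 to 329, 247 and 271 in MeWo and from 203, 199.9 and 209.6 to 275, 236 and 248 in SkMel28. Neither change was called alone (log2 -0.29, adjusted p = 0.0975, and 0.31, adjusted p = 0.102), and their difference was -0.59 ± 0.16 (adjusted p = 0.0353). The call held under 18 of 25 other settings for ATP5B and under 8 of 25 for NDUFA4. Leaving out MeWo Dox replicate 1 raised the count to 31, of which 18 were lower and 13 higher in MeWo relative to SkMel28. Of all 12616 genes, that fit called 1503 lower and 1612 higher in MeWo relative to SkMel28. Leaving out any 1 of 4 other libraries (MeWo control replicate 2, MeWo Dox replicate 3, SkMel28 control replicate 2 or SkMel28 Dox replicate 2) brought the members' count to 0.

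The uninduced lines differed in many of these genes. Of the 82 genes, 25 (30.5%) were lower and 14 (17.1%) higher in SkMel28 control than in MeWo control. Over all genes 24.8% were lower and 26.6% higher, and the median difference of the members was -0.07. Complex IV was lower in SkMel28 for 9 of 12 genes, among them COX4I1, its large nuclear subunit, at 731, 687 and 663 in MeWo and 299, 269 and 296 in SkMel28 (log2 -1.27 ± 0.11, adjusted p = 4.43e-08). COX5B went the other way, with 410.0, 397 and 382 in MeWo and 852, 694 and 834 in SkMel28 (log2 0.99 ± 0.12, adjusted p = 1.82e-06), and no library of one line reached the other. In complex V, ATP5H, subunit d of the peripheral stalk, was 429, 445 and 441 in MeWo and 101, 123 and 111 in SkMel28. That is 74.6% lower (log2 -1.97 ± 0.15, adjusted p = 8.35e-09), the largest such difference among the 82 genes. The ATP5H locus overlaps KCTD2 and that of COX4I1 overlaps EMC8. ATP5G2 was 1266 ± 33.4 in MeWo and 485 ± 44.6 in SkMel28 (log2 -1.39 ± 0.12, adjusted p = 4.75e-08), and ATP5B was 55.2% lower in SkMel28.

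Complex I was mixed between the uninduced lines, with 10 of 36 genes (27.8%) higher and 6 (16.7%) lower in SkMel28. Over all genes 26.6% were higher and 24.8% lower, so the share of higher genes was near that of all genes. NDUFV3, an accessory subunit of the NADH-binding part, was 24.8, 30.7 and 25.9 in MeWo and 58.5, 46.3 and 64.0 in SkMel28 (log2 1.02 ± 0.18, adjusted p = 0.000109). NDUFS3, a core subunit whose locus overlaps CELF1, PTPMT1 and KBTBD4, was 249 ± 40.4 in MeWo and 113 ± 5.65 in SkMel28 (log2 -1.12 ± 0.18, adjusted p = 4.84e-05). The lines thus stood apart in opposite directions for these subunits of the same complex. In complex III, 4 of 11 genes (36.4%) were lower in SkMel28, UQCRB by 44.2%, and UQCRFS1 was higher (log2 0.52 ± 0.11, adjusted p = 0.000936). Among the 4 is UQCRBP1, a pseudogene of UQCRB, whose call held under 15 of 24 other settings. SDHA was the only gene of complex II called, 34.8% lower in SkMel28 (adjusted p = 0.00318). The summed values of complexes IV and V were 20.8% and 26.1% lower in SkMel28 control than in MeWo control without overlap, and that of complex I was 2.6% higher with overlap. Of the 39 genes that differed, 21 were called under all other settings.

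**Figure D5:**
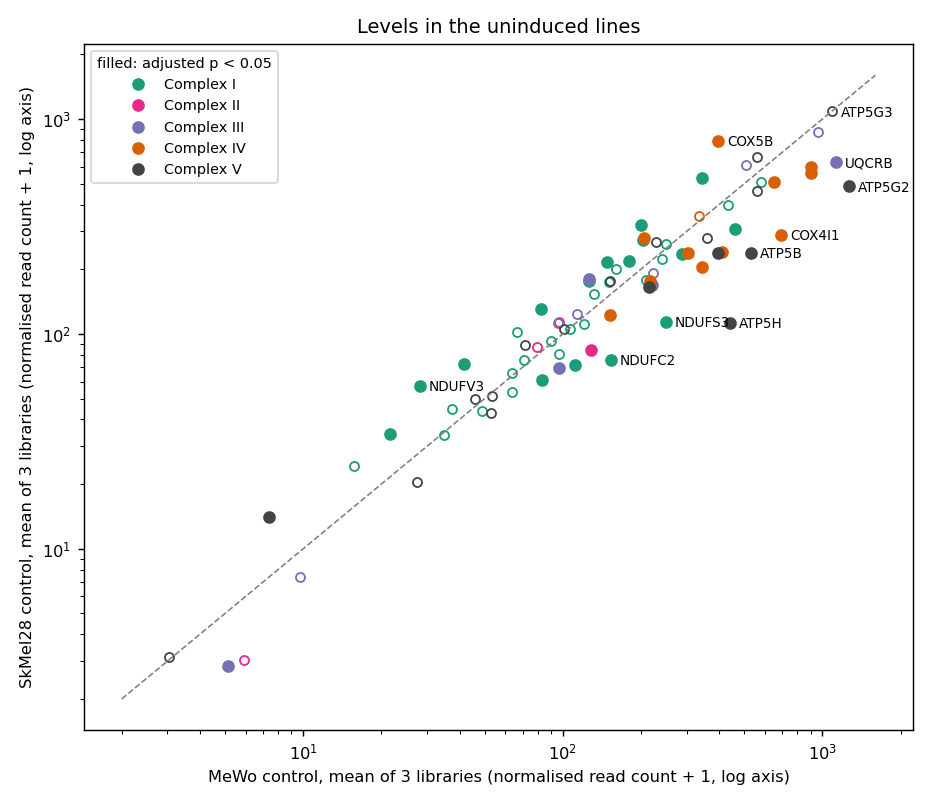
Mean normalised read count + 1 of each of the 82 genes in MeWo control (x axis) and SkMel28 control (y axis), both on log axes, with filled points for an adjusted p below 0.05. Points under the diagonal are lower in SkMel28, 25 of them called, and 14 called points lie above it.

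The GC content of the transcripts went with the changes in opposite ways in the lines. Over the 82 genes (GC of the annotated transcript, median 46.1%), it was correlated with the change in MeWo at Pearson's r = 0.37 and Spearman's rho = 0.35, and with the change in SkMel28 at r = -0.49 and rho = -0.51. These correlations are across genes of the same libraries, which are not independent replicates, and are given as a description. Among the 41 genes of lower GC, 11 fell in MeWo and 2 in SkMel28, and among the 41 of higher GC 4 and 7 did. Over all genes of any GC, 8.12% fell in MeWo and 5.04% in SkMel28. Calls over all genes were not counted within each GC range. The same opposite directions were seen over all genes. Those in the GC range of the lower 41 had a median change of -0.09 in MeWo and 0.05 in SkMel28. For the GC range of the higher 41 these medians were 0.06 and -0.03. The difference of MeWo Dox replicate 1 from its mates also went with GC, over the 82 genes (r = -0.47, rho = -0.44) and over the 12337 genes with a GC value (r = -0.27, rho = -0.27). Of the members that rose in MeWo without that library, NDUFS6, ATP5I and NDUFA11 had 58.4, 56.0 and 62.7% GC, and ATP5O had 44.1%. No GC trend was removed in the fit without that library. With a trend in GC over all genes removed from each library, 15 members were called lower in MeWo, 12 of them shared with the 15 above. NDUFB1, COX7B and COX7C lost their MeWo call, so that complex IV had 3 calls in place of 5, and NDUFS7, UQCR11 and NDUFA2 gained one. In SkMel28 the same 9 members were called, and 1 member, ATP5B, differed between the lines.

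Genes that build or regulate the complexes were counted beside the members, with 8.12% of all genes called lower in MeWo and 5.04% in SkMel28 as the background. Of 8 further subunits that the symbols leave out, 1 fell in MeWo, HIGD2A (log2 -0.72 ± 0.16, adjusted p = 0.00482), a protein associated with complex IV, and none in SkMel28. Of 53 assembly factors, 7 (13.2%) fell in MeWo (median -0.13) and 0 were called in SkMel28 (median -0.11), where 5 were lower and 2 higher at an unadjusted p below 0.05 by limma. CMC2, involved in the assembly of complex IV, had the largest of these falls (log2 -1.20 ± 0.22, adjusted p = 0.00118). Among 23 regulators of mitochondrial gene expression, PPARGC1A and LRPPRC fell in MeWo and TFB1M fell in SkMel28, which is 8.70% and 4.35% of the list, near the shares over all genes, with medians of 0.02 and 0.04. PPARGC1A was 52.4, 49.7 and 51.5 in MeWo control and 22.3, 23.5 and 19.0 in MeWo Dox, and from 0.383 to 1.59 and 0.334 to 2.08 in SkMel28 control and Dox, close to the value of 3 reads (0.835 to 1.17), so the SkMel28 change cannot be read. LRPPRC, which stabilises mitochondrial mRNA, changed by -0.76 ± 0.17 in MeWo (adjusted p = 0.00537), and TFB1M, which modifies mitochondrial ribosomal RNA, by -0.86 ± 0.18 in SkMel28 (adjusted p = 0.00488). HIGD2A, CMC2, PPARGC1A, LRPPRC and TFB1M were named after their values were seen.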

How the data were processed

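RNA of the 12 libraries was sequenced as QuantSeq 3′ end libraries. The submitters' processing notes name FastQC 0.11.7, cutadapt 2.8, STAR 2.5.1b, edgeR and hg38, and the counting tool, its annotation, the use of strand and the treatment of reads with several matches were not given in the sources used here. The authors deposited a signal table of reads over the effective library size times a constant, and dividing each library by the value of 1 read gave whole reads for 100% of values within 0.01. All 12683 deposited features reached a value of 1 in 3 libraries or more, 67 of them spike-in RNAs, which were left out of the tests. Read shares cover counting error only.

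Changes were tested with limma 3.58.1 (R 4.3.3) on log2(value + 1) over all 12616 genes, with 4 group means in 1 model of the 12 libraries and a mean-variance trend, two-sided, with Benjamini-Hochberg adjustment. Fold changes on this scale understate the change of low genes. Nothing beyond the labels says that replicates came from separate cultures, so p-values measure the spread between these samples, which may be technical. edgeR 4.0.16 and DESeq2 1.42.0 on the recovered reads, other scalings, pseudocounts of 0.1 and 5, a filter of 5 in 3 or more libraries, GC and length trends (lowess span 0.4), a replicate block and each library left out were tried, 26 settings in all. The limma, edgeR and DESeq2 fits were tested on simulated data first. The GC trend of the last 500 bases of each transcript was added after seeing the data. The members, lists and tests were chosen with earlier results of these data known. Same-numbered libraries were not shown to share a culture or day.

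The genes named were MITF, then in each complex, among members whose higher group mean reached 10, the 3 called with the largest change in MeWo, the 2 in SkMel28, the 2 in the difference between lines and the 2 between uninduced lines, the member with the highest mean, and the near-identical partners. Some results that this rule or the lists give are not reported here. Lists counted were further subunits, assembly factors, regulators, mitochondrial DNA proteins, import, the citrate cycle, both ribosomes and cell type markers. All 82 members were matched to GENCODE 44 for coordinates and GC content, 19 of them through an older symbol. Of these loci, 22 overlap another listed gene and 48 have annotated pseudogenes. Promoters are those of RefSeq (GRCh38.p14).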

Additional observations from a re-analysis of the deposited data

Results flagged for a closer look

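The change of ATP5B with Dox differed between the lines by -0.67 on the log2 scale (MeWo minus SkMel28, limma, adjusted p = 0.02), lower in 3 of 3 MeWo Dox libraries and higher in 3 of 3 SkMel28 Dox libraries than in every control of the same line. NDUFA4 differed in the same sense by -0.59 (adjusted p = 0.0353), again with 3 of 3 Dox libraries on opposite sides of control in the lines. Over the other settings the difference ranged from -0.79 to -0.30 for ATP5B and from -0.71 to -0.22 for NDUFA4, with a largest adjusted p of 0.496 and 0.633.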

How the results depend on the processing

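Under 26 other settings, 2856 of the values for single genes stayed on their side of the threshold, 163 lost it and 41 reached it. Changes that were not called could change sign. With spike-in scaling, for example, the median of complex II in MeWo went from -0.22 to 0.025. In MeWo the 15 calls became 4 with spike-in scaling and 2 without the mean-variance trend or with each line fitted alone, and 4 to 30 with a library left out: 6, 4 and 5 without MeWo control replicates 1, 2 and 3, 6 without MeWo Dox replicate 3 and 30 without MeWo Dox replicate 1. In SkMel28 the 9 became 4 without the trend and 15 with the line fitted alone, and 3 to 18 with a library left out, that is 4, 4, 3 and 4 without SkMel28 control replicates 1 and 3 and Dox replicates 1 and 2, and 18 without MeWo Dox replicate 1. The 2 differences between lines became 4 with spike-in scaling, all higher in MeWo relative to SkMel28 and 0 of them shared with the first 2, were 2 with edgeR and 3 with DESeq2, and became 0 without the trend, 1 with the GC trend or that of the last 500 bases removed, and 0 to 31 with a library left out. The calls between uninduced lines ranged from 32 to 46 with a library left out. MITF lost its call in SkMel28 without the trend (-0.49), and with a library left out was -0.90 to -0.72 in MeWo and -0.54 to -0.43 in SkMel28.

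Same-numbered libraries correlated at -0.18 to 0.16, so the pairing rests on a number alone. With the replicate block 11 genes were called in MeWo, 5 in SkMel28 and 0 between the lines, and with the GC trend removed as well 4 in SkMel28 and 1 between the lines.

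With spike-in scaling the summed values of all members changed by 0.049 in MeWo, -0.24 in SkMel28 and -0.10 between uninduced lines (log2), so that the MeWo sums of all members and of complexes I, II, III and V and the uninduced sum of complex II turned from below to above 0. The same values were 0.12, -0.35 and 0.17 for complex I, 0.056 (MeWo) and 0.028 (uninduced) for complex II, 0.052, -0.27 and -0.098 for complex III, -0.035, -0.20 and -0.20 for complex IV, and 0.050, -0.12 and -0.30 for complex V. In MeWo, control and Dox libraries overlapped for each of these spike-in scaled sums. Complex III was -0.27 between uninduced lines with upper-quartile scaling. For these changes the cause was not tested. Depth limits the members with few reads, such as SDHD and ATP5L2.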

Other observations

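Other mitochondrial genes were counted in the same fit, in which 8.12% of all genes were called lower and 8.58% higher in MeWo, and 5.04% and 5.88% in SkMel28. Of 13 citrate cycle enzymes, 4 fell in MeWo (among them IDH3A by 0.91, SUCLG2 by 0.70 and SUCLG1 by 0.59 on the log2 scale) and SUCLG1 fell by 0.51 in SkMel28, with list medians of -0.32 and -0.05 and 0 called higher. By limma these were the calls at an adjusted p below 0.05, and the genes were named after their values were seen. Of 29 genes for import, carriers and chaperones, TIMM50, SLC25A3 and TOMM20 fell and TIMM8B and TOMM6 rose in MeWo, and TIMM50 alone fell in SkMel28, with medians of -0.12 and -0.08. The called shares were 10.3% lower and 6.90% higher in MeWo and 3.45% lower in SkMel28, and those of the citrate cycle were 30.8% and 7.69% lower.

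Of 75 genes for the mitochondrial ribosome, 7 fell in MeWo, and in SkMel28 2 fell (MRPL35 and MRPS25) and 1 rose (MRPL32), with medians of -0.09 and -0.18. The shares called lower, 9.33% and 2.67%, were close to that of all genes in MeWo and under it in SkMel28. Of 79 genes for the cytosolic ribosome, 3 rose and 2 fell in MeWo, with a median of 0.05, and 0 were called in SkMel28, with a median of -0.01. Between the uninduced lines 63 of these 79 (79.7%) were lower in SkMel28 and 1 higher, with a median of -0.63, against 24.8% lower and 26.6% higher over all genes.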
